A study of Homo sapiens with 6 samples.

Results

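The Wnt and β-catenin pathway was followed in Hep-3B cells through 54 genes, chosen by name as the ligands, receptors, destruction complex members, TCF factors and target genes of the pathway, with the Dishevelled genes left out. All 54 were found, by Ensembl identifier, among the 23406 features of the deposited count and FPKM tables. Hep-3B is a human hepatocellular carcinoma line of epithelial cells. The cells carried either a control shRNA (shControl, genotype given as WT) or an shRNA against NXN (shNXN, genotype given as NXN knockdown), both delivered by lentivirus and followed by puromycin selection for a week, and total RNA was taken on days 7, 9 and 11. There was 1 library per group and day, so each group held 3 libraries that differ in day. The labels do not say whether the days count from transduction or from the end of selection, which of the study's shRNAs was used, or whether the 3 days came from separate transductions, so the p-values measure the spread over these libraries only.

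In the canonical Wnt pathway, a Wnt ligand binds a Frizzled receptor and the co-receptor LRP5 or LRP6, and the cytoplasmic destruction complex of APC, AXIN1 or AXIN2, GSK3 and casein kinase 1 then stops marking β-catenin for degradation. β-catenin accumulates, enters the nucleus and activates genes together with the TCF factors, and several of these targets, such as AXIN2, RNF43, ZNRF3, NKD1, NOTUM and DKK1, act back on the pathway as inhibitors. The pathway sets the zonation of the liver lobule and is often mutated in liver cancer. NXN encodes nucleoredoxin, a thioredoxin-family protein known to bind Dishevelled, the protein that links Frizzled to the destruction complex, and the comparison asks whether β-catenin targets differ in shNXN cells and on which day.

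The base composition of the members is shown first, because the differences between the groups were found to follow it. The 150 bases at the middle of the longest coding exon were read for 2 pairs of genes with related roles, the scaffolds APC and AXIN1 and the co-receptors LRP6 and LRP5, in GRCh38 (GENCODE 29), and G and C are in capitals. The APC stretch lies in exon 17 of 17 at chr5:112840763-112840912 on the plus strand, and 42.0% of it is G or C. The AXIN1 stretch lies in exon 2 of 11 at chr16:346512-346661 on the minus strand (54.7%). The LRP6 stretch lies in exon 6 of 23 at chr12:12181166-12181315 on the minus strand (48.7%), and that of LRP5 in exon 2 of 23 at chr11:68347970-68348119 on the plus strand (64.7%).
APC: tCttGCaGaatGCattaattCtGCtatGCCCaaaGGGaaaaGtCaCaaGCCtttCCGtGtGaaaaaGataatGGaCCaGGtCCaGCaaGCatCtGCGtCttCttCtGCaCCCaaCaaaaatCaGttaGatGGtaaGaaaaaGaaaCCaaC
AXIN1: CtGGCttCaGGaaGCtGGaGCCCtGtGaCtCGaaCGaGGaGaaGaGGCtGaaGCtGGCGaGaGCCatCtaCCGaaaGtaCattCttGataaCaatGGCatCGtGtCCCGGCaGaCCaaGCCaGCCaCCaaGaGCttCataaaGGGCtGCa
LRP6: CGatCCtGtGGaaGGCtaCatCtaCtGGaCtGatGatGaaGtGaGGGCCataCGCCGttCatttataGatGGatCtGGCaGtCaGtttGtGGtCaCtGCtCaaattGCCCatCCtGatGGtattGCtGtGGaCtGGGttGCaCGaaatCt
LRP5: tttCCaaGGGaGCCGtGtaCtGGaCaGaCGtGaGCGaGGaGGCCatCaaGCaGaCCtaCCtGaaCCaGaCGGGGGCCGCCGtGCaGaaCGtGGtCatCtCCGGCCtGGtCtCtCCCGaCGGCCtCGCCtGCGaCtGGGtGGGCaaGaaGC
Over the whole coding sequence, G and C made up 41.2% of APC, 62.1% of AXIN1, 46.5% of LRP6 and 63.6% of LRP5. The 49 members that could be tested ranged from 34.9% (FZD3) to 66.5% (NOTUM) over their longest transcript, with a median of 51.1%, and the median over all features tested was 48.4%.

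Promoters were read for the target genes because TCF factors bind DNA at the letters CTTTGAT or CTTTGAA. In the 250 bases before the start sites given by RefSeq (GRCh38.p14), one or the other occurred on either strand in 5.94% of 35116 promoters. RefSeq promoters, 11 in all, were at hand for 7 of the 15 target members, and 2 of the 11 (18.2%) held a match, those of the feedback transcription factor SP5 and the secreted inhibitor DKK1. SP5 had 3 matches within chr2:170715087-170715336 (plus strand) and DKK1 had 1 within chr10:52314031-52314280 (plus strand), shown in capitals, none of them overlapping.
SP5: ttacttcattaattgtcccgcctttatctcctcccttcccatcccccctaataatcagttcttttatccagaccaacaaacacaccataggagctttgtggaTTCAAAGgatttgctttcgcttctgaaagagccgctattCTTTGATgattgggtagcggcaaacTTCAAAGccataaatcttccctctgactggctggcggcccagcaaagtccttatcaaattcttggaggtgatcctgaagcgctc
DKK1: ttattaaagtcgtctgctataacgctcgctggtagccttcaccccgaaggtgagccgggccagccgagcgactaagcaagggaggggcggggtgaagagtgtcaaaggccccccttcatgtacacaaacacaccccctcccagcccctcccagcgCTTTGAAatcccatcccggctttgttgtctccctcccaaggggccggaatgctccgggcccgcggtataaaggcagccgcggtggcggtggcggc
A match is only a run of letters, and binding was not measured in these libraries.

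Library totals ran from 15349382 to 16332589 counts, and 14071 features passed the filter on low counts. NXN was at 181, 138 and 143 CPM (counts scaled to the library size, with TMM factors) on days 7, 9 and 11 in shControl cells and at 42.7, 47.5 and 39.5 CPM in shNXN cells. It fell by 1.83 on the log2 scale (SE 0.16, edgeR's quasi-likelihood test, adjusted p = 0.0378), and an exact permutation test over the libraries gave p = 0.1, the smallest that 3 against 3 allows. Without the shControl library of day 7 or 11, or the shNXN library of day 7 or 9, the edgeR adjusted p was 0.0633 to 0.225, with log2 fold changes of -1.67 to -1.90. All 10 hepatocyte and liver cancer markers were present, at a summed 11308 to 17210 FPKM with shControl and 5956 to 11698 FPKM with shNXN. ALB alone ranged from 4409 to 12145 FPKM with shControl and from 489 to 4735 FPKM with shNXN. By counts, 5 of the 10 markers had a log2 fold change above 0 and 5 below, with a median of -0.014. Fibroblast markers summed to at most 4.39 FPKM. Of the 5 leukocyte markers, LYZ and CD68 made up most of a sum of 131 to 172 FPKM with shControl and 177 to 296 FPKM with shNXN, PTPRC reached at most 0.04 FPKM and CD3E was at 0. The leukocyte sums did not overlap between the groups, and their part in the results was not tested. VWF and KDR were at 0 and CDH5 at no more than 0.02 FPKM. Across features, a library's deviation from each gene's mean log2 CPM over the 6 libraries tilted with transcript GC content. The Spearman correlations were -0.62, -0.37 and -0.71 on days 7, 9 and 11 with shControl, and 0.72, 0.75 and 0.094 with shNXN. The shNXN library of day 11 thus stood apart from the other shNXN libraries. The deviations of a gene sum to 0 over the libraries, so opposite signs in the groups are partly built in.

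No Wnt pathway member passed the test between shNXN and shControl cells when the libraries of the 3 days were treated as plain replicates. The smallest adjusted p was 0.0604, for LRP6 (edgeR's quasi-likelihood test, Benjamini-Hochberg over all features), and 13 of the 49 members had an unadjusted p under 0.05, whereas 3.39% of all features passed and 32.9% had an unadjusted p under 0.05. With the day as a block, so that each shNXN library is set against the shControl library of its day, 11 members (22.4%) passed, beside 23.3% of all features. LRP6, FZD3, FZD6, APC, TNFRSF19 and DAAM1 fell, 6 members beside 17% of features, of which LRP6, FZD3, FZD6 and DAAM1 turned to between 0.0062 and 0.21 when a GC offset was added, and LRP5, FZD2, CSNK1E, PYGO2 and NKD1 rose, 5 members beside 6.28% of features. When each library's trend on GC content was removed by an offset, 0 members passed, beside 0.0355% of all features, and with the offset and the block together 0 members passed, beside 0.924%. In these bulk libraries, fewer cells that express a gene and less RNA per cell cannot be told apart.

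The calls also depended on the tool and on 1 library. DESeq2 called 9 members, 4 lower and 5 higher, beside 24% of the 13793 features to which it gave an adjusted p. Without the shNXN library of day 11 edgeR called 9 members, 7 lower and 2 higher, beside 25.8% of all features. Without any one of the other 5 libraries it called 0 members, beside 1.73% of all features without the shControl library of day 9 and 0% without each of the other four. In those fits 6 to 15 members had an unadjusted p under 0.05, beside 13 members and 32.9% of all features in the fit of all 6 libraries. The share of all features under that p was not counted in those fits. The libraries of days 7 and 9 alone gave 13 member calls, 9 lower and 4 higher, beside 31.8% of all features.

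In level, 7 members (14.3%) were lower in all 3 shNXN libraries than in any shControl library, beside 21.5% of all features, and 13 (26.5%) were higher, beside 19% of features. The difference had the same sign on each day for 39 members (79.6%), 14 lower and 25 higher, beside 68.4% of features. The median log2 fold change was 0.24 over the 49 members, with 29 above 0 and 20 below, and 0.025 over all features. With the GC offset it was 0.055 over the members. Without WNT11, which passed the filter on low counts only through the shNXN libraries, 12 of 48 members (25%) were higher with no overlap, 38 (79.2%) had the same sign on each day and the median log2 fold change was 0.22, or 0.051 with the GC offset.

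**Figure D1:**
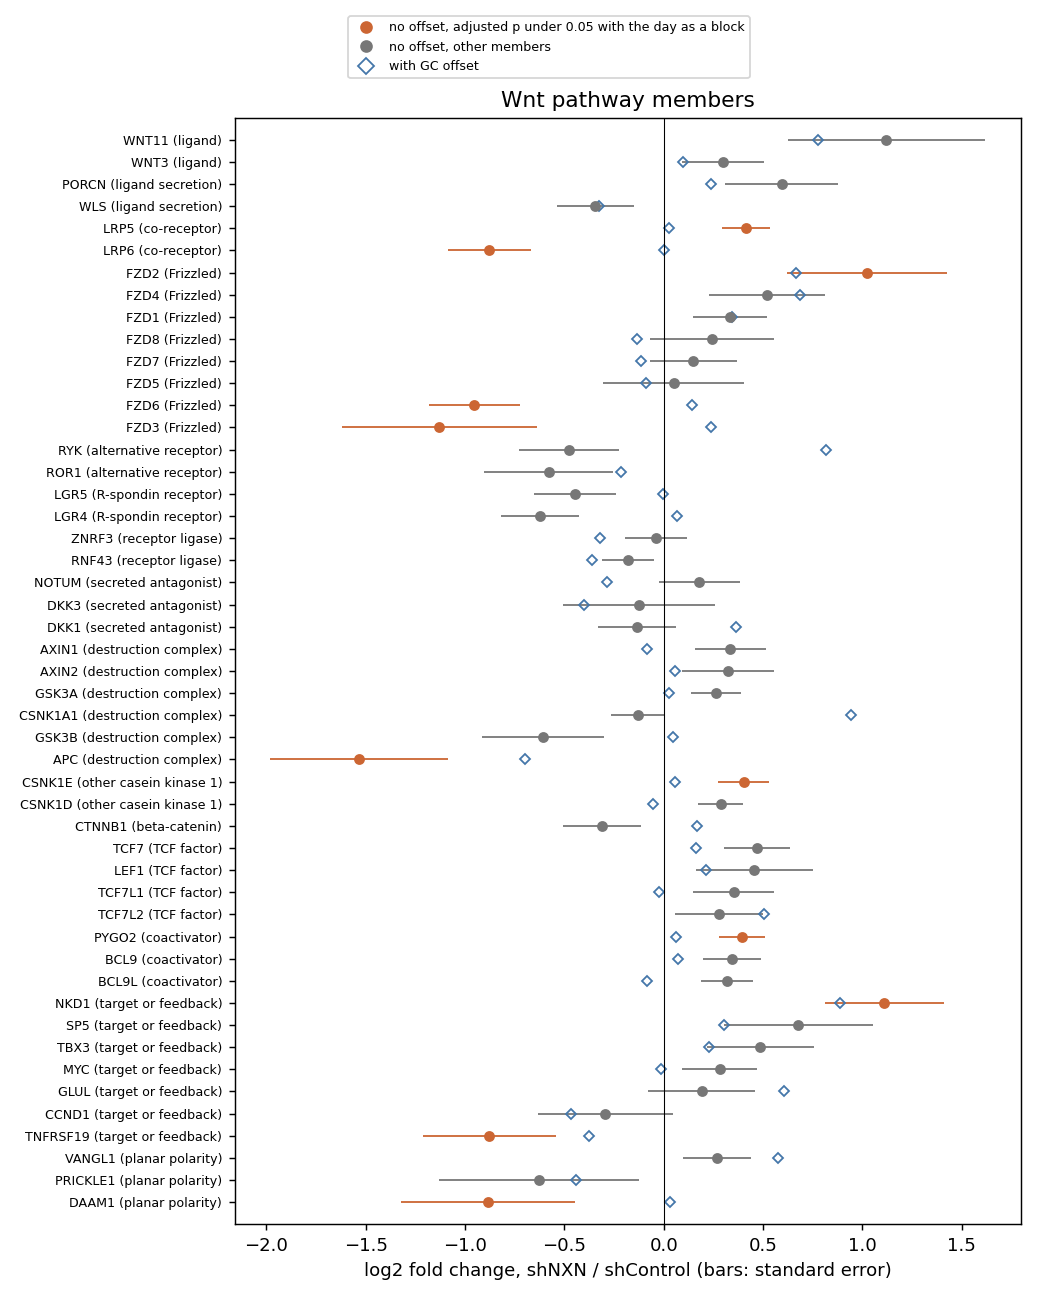
Log2 fold change of the 49 Wnt pathway members tested, shNXN over shControl (x axis), grouped by role. Circles are the values without a GC offset, with bars for the standard error, orange for the 11 members with an adjusted p under 0.05 with the day as a block, and open diamonds are the values with the GC offset. APC lies farthest to the left at -1.53, and the diamonds of LRP6, LRP5, CSNK1E and PYGO2 lie at -0.00077, 0.025, 0.056 and 0.064, while that of CSNK1A1 lies at 0.94.

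Of the 4 ligands, 2 passed the filter on low counts. WNT3, a canonical ligand, was at 10.9, 10.6 and 9.81 CPM with shControl and 14.1, 13.5 and 10.8 CPM with shNXN, and its log2 fold change was 0.30 ± 0.21 (SE). WNT11, a ligand known for β-catenin-independent signaling, was below 1 CPM in every library, with counts of 3, 11 and 5 in the shControl and 16, 14 and 12 in the shNXN libraries. It passed the filter only through the shNXN libraries, so its difference is given no test. WNT5A had 0 counts in all 6 libraries, which allows up to 3 counts in each, and WNT5B stayed at or below 0.322 CPM, so neither could be tested. PORCN, which attaches the lipid that Wnt proteins need, was at 4.85, 5.78 and 4.60 CPM with shControl and 9.55, 8.09 and 5.35 CPM with shNXN (log2 fold change 0.59 ± 0.29 (SE)). WLS, which carries lipidated Wnt proteins to the cell surface, was at 45.6, 68.8 and 54.3 CPM with shControl and 44.5, 39.5 and 48.9 CPM with shNXN (-0.34 ± 0.19 (SE)). In neither case did the groups separate.

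The co-receptors had differences of opposite sign by counts, though not by FPKM, where LRP6 was at 0.32 on the log2(FPKM + 1) scale. LRP6 was at 71.7, 79.4 and 74.6 CPM in the shControl libraries and 37.3, 32.4 and 53.1 CPM in the shNXN libraries on days 7, 9 and 11. Every shNXN value was below every shControl value, and the day 11 value was the highest of the shNXN libraries. Its log2 fold change was -0.88 ± 0.21 (SE) in edgeR, with an adjusted p of 0.0604 without and 0.0305 with the day as a block, and -0.00077 with the GC offset. LRP5, the more abundant co-receptor per transcript length (a mean of 109 FPKM over the 6 libraries, beside 21.5 FPKM for LRP6), was at 397, 454 and 388 CPM in the shControl libraries and 564, 562 and 524 CPM in the shNXN libraries, and the groups did not overlap. The log2 fold change of LRP5 was 0.41 ± 0.12 (SE), with edgeR adjusted p values of 0.0794 without and 0.0385 with the block. With the GC offset the LRP5 log2 fold change was 0.025 (edgeR adjusted p = 0.954). Thus both differences were near 0 once the GC trend had been removed.

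Among the 8 Frizzled genes, which encode the Wnt receptors proper, 2 fell and 1 rose with the block, beside 17% and 6.28% of all features. FZD6 was at 45.2, 48.3 and 56.2 CPM in the shControl libraries and 23.9, 19.9 and 33.5 CPM in the shNXN libraries. It was lower in every shNXN library, with a log2 fold change of -0.95 ± 0.23 (SE) (edgeR adjusted p = 0.0607, or 0.0212 with the block), but its sign turned with the GC offset (0.14). FZD3, which is known for axon guidance and planar polarity, was at 5.18, 4.49 and 7.67 CPM with shControl and 2.31, 1.16 and 4.45 CPM with shNXN, again with no overlap. Its log2 fold change of -1.13 ± 0.49 (SE) (edgeR adjusted p = 0.157, or 0.0407 with the block) likewise turned to 0.24 with the offset. FZD2 was at 4.39, 6.21 and 2.02 CPM with shControl and 8.88, 9.50 and 7.28 CPM with shNXN, higher in every shNXN library, and its log2 fold change was 1.02 ± 0.40 (SE) (edgeR adjusted p = 0.133, or 0.0480 with the block) and 0.66 with the offset. FZD5 was the most abundant of the family per transcript length, with a mean of 44.4 FPKM over the 6 libraries beside 15.1 FPKM for FZD6 and 5.01 FPKM for FZD1. FZD5 ranged from 178 to 455 CPM within the shControl group alone, and its log2 fold change was 0.050 ± 0.36 (SE). FZD1 was at 19.6, 18.2 and 16.3 CPM with shControl and 22.5, 20.0 and 25.8 CPM with shNXN, with no overlap between the groups, and its log2 fold change was 0.33 ± 0.19 (SE) and 0.34 with the GC offset (edgeR adjusted p = 0.241 and 0.314).

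The alternative receptors RYK and ROR1, which bind Wnt ligands outside the canonical route, did not pass in edgeR with or without the block or the GC offset. RYK was at 52.3, 36.5 and 59.0 CPM with shControl and 32.4, 28.8 and 45.1 CPM with shNXN, and its log2 fold change went from -0.48 ± 0.25 (SE) to 0.82 with the GC offset (edgeR adjusted p = 0.222 and 0.0815). ROR1 had a log2 fold change of -0.58 ± 0.32 (SE), and ROR2 had 0 counts in all 6 libraries.

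LGR4 and LGR5 are the R-spondin receptors, which protect Frizzled from the ubiquitin ligases RNF43 and ZNRF3, and LGR5 is itself a β-catenin target. LGR4 was at 83.1, 76.4 and 54.0 CPM with shControl and 41.8, 48.8 and 48.1 CPM with shNXN, and LGR5 was at 31.5, 33.5 and 24.1 CPM with shControl and 23.8, 18.3 and 23.3 CPM with shNXN. Both were lower in all 3 shNXN libraries than in any shControl library, but neither passed: their log2 fold changes were -0.62 ± 0.20 (SE) and -0.45 ± 0.20 (SE), and 0.068 and -0.0022 with the GC offset. The edgeR adjusted p values with the block were 0.0653 and 0.139. RNF43 was at 89.9, 96.2 and 102 CPM with shControl and 88.9, 87.5 and 77.7 CPM with shNXN, with a log2 fold change of -0.18 ± 0.13 (SE) and no overlap between the groups. With the GC offset the RNF43 value was -0.36 ± 0.13 (SE) (edgeR adjusted p = 0.228). ZNRF3 was at 45.9, 39.8 and 45.1 CPM with shControl and 37.7, 45.1 and 44.7 CPM with shNXN, and its log2 fold change of -0.037 ± 0.16 (SE) was smaller than its standard error. With the GC offset the ZNRF3 value was -0.32 ± 0.15 (SE) (edgeR adjusted p = 0.351).

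The secreted inhibitors showed no call in edgeR with or without the block. DKK1, which blocks LRP5 and LRP6, was the most abundant member per transcript length, with a mean of 476 FPKM over the 6 libraries. It was at 563, 468 and 763 CPM in the shControl libraries and 492, 549.9 and 594 CPM in the shNXN libraries, and the groups overlapped. The log2 fold change of DKK1 was -0.13 ± 0.20 (SE) and 0.36 with the GC offset, and neither passed (edgeR adjusted p = 0.645 and 0.400). NOTUM, an enzyme that removes the lipid from Wnt proteins, was at 12.7, 13.5 and 15.9 CPM with shControl and 16.5, 13.5 and 17.6 CPM with shNXN (0.18 ± 0.20 (SE)). DKK3 stayed between 1.23 and 2.74 CPM. SFRP1 had 0 counts in all 6 libraries, and FRZB stayed at or below 0.184 CPM and was not tested.

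In the destruction complex, APC had the log2 fold change farthest from 0 of the 49 members by counts, but not with the GC offset, where that of CSNK1A1 was farthest. On the log2(FPKM + 1) scale the sign of APC turned (0.092). APC, the scaffold whose loss activates the pathway in colorectal cancer, was at 49.4, 56.2 and 51.2 CPM in the shControl libraries and 11.9, 9.68 and 32.6 CPM in the shNXN libraries on days 7, 9 and 11. All shNXN values lay below all shControl values, and the day 11 value lay above the other shNXN values. The group means were 52.3 ± 3.52 and 18.1 ± 12.6 CPM (SD, n = 3). In edgeR the log2 fold change was -1.53 ± 0.45 (SE) without the block (edgeR adjusted p = 0.0792) and -1.74 ± 0.39 (SE) with it (edgeR adjusted p = 0.0361). With the GC offset the APC log2 fold change was -0.70 ± 0.27 (SE) (edgeR adjusted p = 0.240). By day the difference in log2 CPM was -2.04, -2.52 and -0.65, and the term for a change of the difference with day did not pass (edgeR adjusted p = 0.99998).

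The other members of the complex did not pass in edgeR with or without the block. AXIN1, the limiting scaffold, was at 53.5, 66.5 and 59.1 CPM with shControl and 75.0, 88.6 and 62.2 CPM with shNXN, with 1 shNXN value inside the shControl range. AXIN1 had a log2 fold change of 0.33 ± 0.18 (SE) and -0.082 with the GC offset. AXIN2, the inducible homolog and a widely used readout of β-catenin activity, was at 4.65, 4.43 and 3.80 CPM with shControl and 5.90, 5.15 and 5.09 CPM with shNXN. The groups of AXIN2 did not overlap, yet the log2 fold change of 0.32 ± 0.23 (SE) did not pass in edgeR (adjusted p = 0.345, or 0.250 with the block), and it was 0.055 with the GC offset.

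The kinases of the complex prepare β-catenin for degradation. GSK3A was at 136, 129 and 139 CPM with shControl and 144, 171 and 169.9 CPM with shNXN, and GSK3B at 90.0, 55.4 and 115 CPM with shControl and 48.6, 47.1 and 75.6 CPM with shNXN. The log2 fold change was 0.26 ± 0.13 (SE) for GSK3A and -0.61 ± 0.31 (SE) for GSK3B, of which the second turned to 0.047 with the GC offset. CSNK1A1, the casein kinase that makes the first phosphorylation, was at 161, 133 and 163 CPM with shControl and 137, 151 and 131 CPM with shNXN, with a log2 fold change of -0.13 ± 0.14 (SE) and 0.94 ± 0.25 (SE) with the offset (edgeR adjusted p = 0.521 and 0.131). The related casein kinase CSNK1E, which acts on Dishevelled and LRP6, was at 124, 116 and 113 CPM with shControl and 169, 155 and 142 CPM with shNXN, higher in each shNXN library. The CSNK1E log2 fold change was 0.40 ± 0.13 (SE) (edgeR adjusted p = 0.0897, or 0.0431 with the block) and 0.056 with the GC offset. CSNK1D, its close relative, was also higher in every shNXN library (log2 fold change 0.29 ± 0.11 (SE)) and did not pass (edgeR adjusted p = 0.0749 with the block).

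CTNNB1, the gene of β-catenin itself, was at 204, 296 and 203 CPM in the shControl libraries and 167, 177 and 222 CPM in the shNXN libraries. The groups overlapped, and the log2 fold change was -0.31 ± 0.20 (SE) (edgeR adjusted p = 0.296, or 0.244 with the block) and 0.17 with the GC offset. These are transcript levels, and β-catenin protein was not measured in these files.

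All 4 TCF factors, which carry β-catenin to DNA, and all 3 coactivators had a log2 fold change above 0, of which those of TCF7L1 and BCL9L turned below 0 with the GC offset. Without the offset 7229 of the 14071 features tested were above 0. So were 24 of the 28 members at or above the median GC content of all features. Among the TCF factors and coactivators 1 gene rose with the block, beside 6.28% of all features. TCF7 was at 31.4, 30.6 and 24.6 CPM with shControl and 41.7, 40.3 and 37.9 CPM with shNXN, higher in each shNXN library (log2 fold change 0.47 ± 0.17 (SE), edgeR adjusted p = 0.110, or 0.0540 with the block). LEF1 was at 5.11, 3.69 and 6.50 CPM with shControl and 6.69, 5.88 and 8.44 CPM with shNXN, with overlap (0.46 ± 0.29 (SE)). TCF7L2 and TCF7L1 had log2 fold changes of 0.28 ± 0.22 (SE) and 0.35 ± 0.21 (SE), and with the GC offset they were at 0.51 and -0.025. PYGO2, which binds methylated histone H3 and is tied to β-catenin through BCL9, was at 82.0, 83.0 and 80.5 CPM with shControl and 106, 110.3 and 106 CPM with shNXN. PYGO2 rose with the block (log2 fold change 0.39 ± 0.10 (SE), edgeR adjusted p = 0.0463), and its log2 fold change was 0.064 with the GC offset. BCL9 and BCL9L were also higher in every shNXN library, with log2 fold changes of 0.34 ± 0.15 (SE) and 0.32 ± 0.13 (SE), neither of which passed, and that of BCL9L was -0.084 with the offset.

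The 15 target members lay on both sides of 0. With the block, 2 of them passed (13.3%, beside 23.3% of all features), NKD1 higher and TNFRSF19 lower. NKD1, a Dishevelled-binding feedback inhibitor, was at 3.02, 2.21 and 3.13 CPM in the shControl libraries and 6.88, 4.35 and 6.83 CPM in the shNXN libraries, and the groups did not overlap. Its log2 fold change was 1.11 ± 0.30 (SE) without the block (edgeR adjusted p = 0.0719), 1.10 ± 0.21 (SE) with it (edgeR adjusted p = 0.0282) and 0.88 ± 0.30 (SE) with the GC offset (edgeR adjusted p = 0.205), the highest value among the targets in each of these fits. TNFRSF19, a TNF receptor family member also called TROY, was at 34.2, 21.6 and 46.3 CPM in the shControl libraries and 16.2, 14.5 and 24.9 CPM in the shNXN libraries. The day 9 shControl value lay below the day 11 shNXN value, but on each day shNXN was the lower of the pair. Its log2 fold change was -0.88 ± 0.33 (SE) (edgeR adjusted p = 0.125, or 0.0273 with the block) and -0.38 with the GC offset. TNFRSF19 was at 9.37, 6.66 and 13.3 FPKM with shControl and 7.81, 7.45 and 8.87 FPKM with shNXN, where shNXN was the higher on day 9 and the difference on the log2(FPKM + 1) scale was -0.21, and with the GC offset its day 9 difference was 0.18.

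SP5, whose promoter held 3 matches above, was at 15.1, 17.9 and 7.42 CPM with shControl and 17.7, 29.7 and 17.2 CPM with shNXN, with overlap between the groups. The log2 fold change of SP5 was 0.68 ± 0.38 (SE) (edgeR adjusted p = 0.240, or 0.0700 with the block), and 0.30 with the GC offset. SP5 was at 14.6, 12.6 and 4.27 FPKM with shControl and 10.4, 25.7 and 9.51 FPKM with shNXN, where shNXN was the lower on day 7. TBX3, a T-box factor tied to β-catenin in liver, was at 19.0, 19.3 and 16.7 CPM with shControl and 29.5, 31.3 and 16.2 CPM with shNXN (0.49 ± 0.27 (SE)), with the day 11 shNXN value below every shControl value. GLUL, glutamine synthetase and the classic pericentral target in hepatocytes, was at 429, 481 and 242 CPM with shControl and 449, 514 and 351 CPM with shNXN. Its day 11 values were the lowest of each group, and the log2 fold change was 0.19 ± 0.27 (SE) and 0.60 with the GC offset. With the block and the offset together GLUL was at 0.61 ± 0.097 (SE) and did not pass (edgeR adjusted p = 0.0584). That was the smallest adjusted p of the 49 members in that fit. MYC, the growth regulator, was at 262, 179 and 190.1 CPM with shControl and 297, 244 and 226 CPM with shNXN (0.28 ± 0.19 (SE)). CCND1, the gene of cyclin D1, was at 27.5, 17.2 and 44.2 CPM with shControl and 20.3, 25.7 and 26.5 CPM with shNXN (-0.29 ± 0.34 (SE)). The groups overlapped for GLUL, MYC and CCND1.

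Over the 15 targets the median log2 fold change was 0.19, beside 0.025 over all features, with 9 above 0 and 6 below. With the GC offset it was 0.055, with 8 above 0 and 7 below. The groups did not overlap for 2 targets that were lower in shNXN cells (13.3%, beside 21.5% of features) and for 3 that were higher (20.0%, beside 19% of features).

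**Figure D2:**
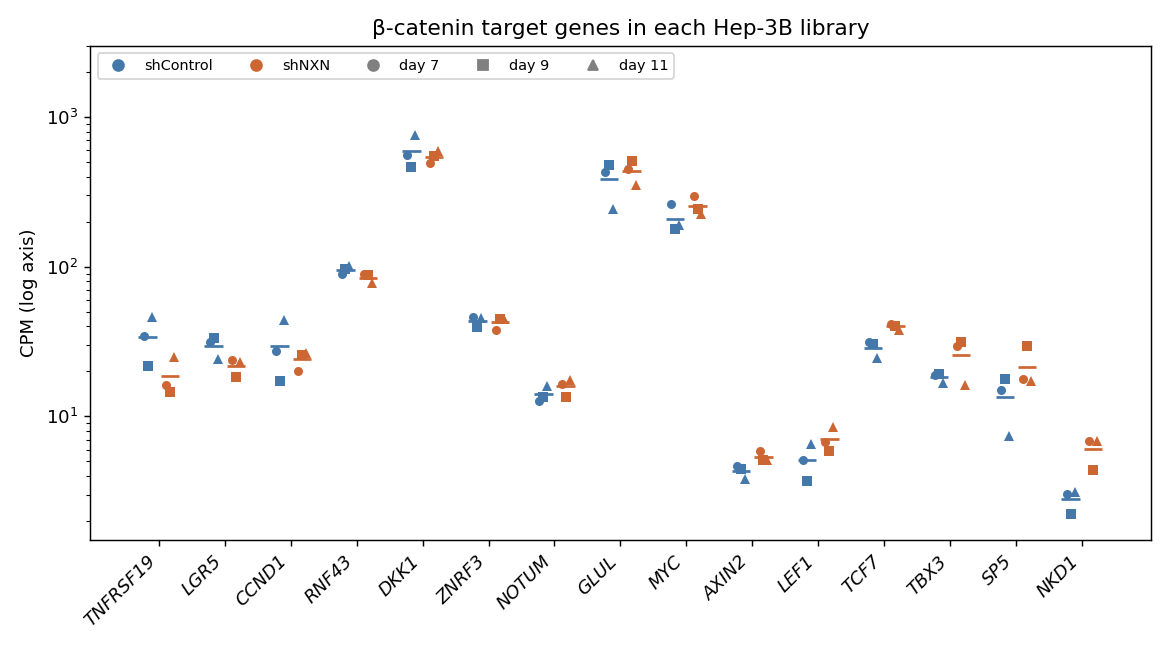
CPM of the 15 target members in each library, on a log axis, ordered by log2 fold change. Blue symbols are shControl and orange symbols shNXN libraries, the symbol shape gives the day and bars are group means. TNFRSF19 lies at the left end (means 34.0 and 18.5 CPM) and NKD1 at the right end (means 2.79 and 6.02 CPM).

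Each day holds 1 library per group and so allows no test within a day. The median difference in log2 CPM of the 15 targets, shNXN minus shControl, came to 0.18, 0.23 and 0.15 on days 7, 9 and 11, beside 0.00028, -0.0048 and 0.067 over all features. On those days 9, 12 and 8 of the 15 targets were higher in shNXN cells. After the GC trend had been removed the medians were 0.060, 0.18 and -0.0095. SP5 had differences of 0.23, 0.73 and 1.20, AXIN2 of 0.33, 0.21 and 0.41, and CCND1 of -0.44, 0.58 and -0.73. With the GC trend removed the differences of SP5 were -0.11, 0.43 and 0.55 and those of AXIN2 0.060, -0.070 and 0.15. Those of CCND1 were then -0.58, 0.46 and -0.95. The term for a change of the difference with day called 0 members and 0 (0%) of all features (edgeR's quasi-likelihood test), and 0 of the 49 members had an unadjusted p under 0.05 for it, beside 152 of all features. That fit left 2 residual degrees of freedom.

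**Figure D3:**
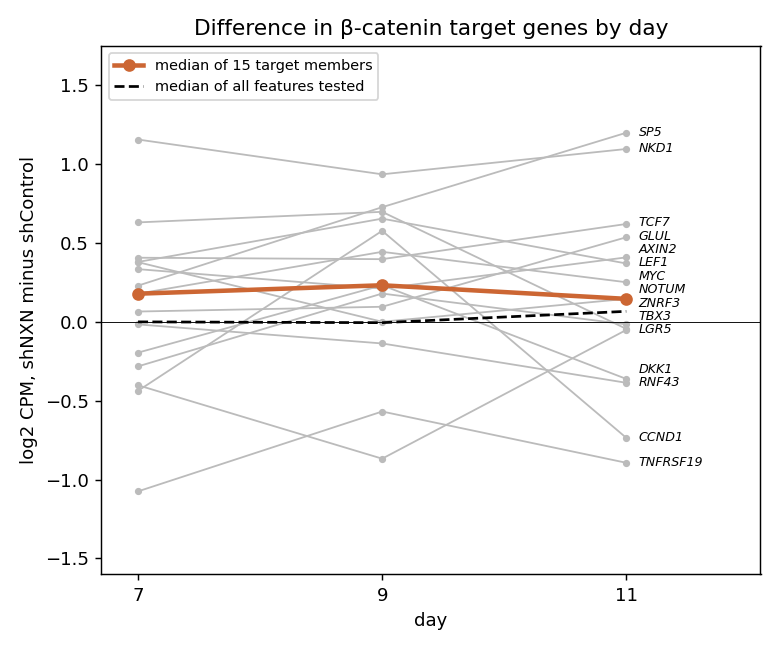
Difference in log2 CPM, shNXN minus shControl, of the 15 target members on days 7, 9 and 11 (grey lines), with their median in orange and the median of all features tested as a dashed line. The orange line stays between 0.15 and 0.23, and single genes lie on both sides of 0 on each day.

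The direction of the differences went with base composition. Across the 49 members, the log2 fold change was higher the higher the transcript GC content (Spearman 0.76), and likewise across 12740 features with a GC value (0.79). These correlations are across genes of the same 6 libraries, and genes are not independent replicates. Of the 21 members below the median GC content of all features, 16 had a log2 fold change below 0 (median -0.48), and with the block 6 fell and 0 rose, where 35.3% of all features in that GC range were called lower and 0.581% higher. Of the 28 members at or above it, 24 had a value above 0 (median 0.33), and 0 fell and 5 rose, where 0.235% of all features in that range were called lower and 12.9% higher. On the single days the correlation over the 49 members was 0.74, 0.63 and 0.69. With the offset it was -0.13 over the members and -0.030 over all features. NKD1, at 51.6% GC, kept a log2 fold change of 0.88 with it, FZD2 0.66 and APC -0.70, while CSNK1A1 and RYK moved to 0.94 and 0.82. The offset removes any group difference that follows GC content, whatever its origin, and what gave rise to the trend was not tested.

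**Figure D4:**
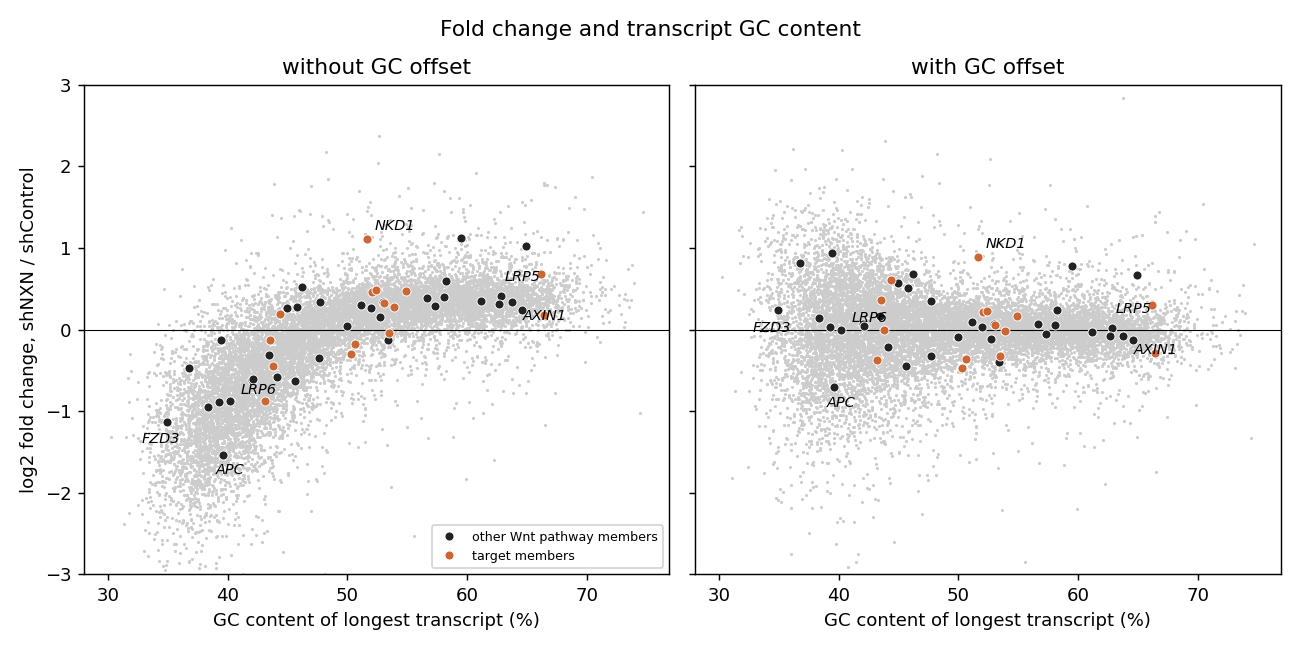
Log2 fold change, shNXN over shControl (y axis), against the GC content of the longest transcript (x axis), without (left) and with (right) the GC offset. Grey points are all features with a GC value, black points Wnt pathway members and orange points target members. The axis ends at -3 and 3, beyond which 37 features lie on the left and 11 on the right. On the left members of low GC content such as APC at -1.53 lie mostly below 0 and those of high GC content such as LRP5 at 0.41 mostly above it, and on the right most lie around 0, with CSNK1A1 at 0.94, NKD1 at 0.88, RYK at 0.82 and APC at -0.70.

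The count and FPKM tables, made from the same libraries, disagreed for some of these genes. APC was lower in shNXN cells by counts but stood at 7.25, 10.2 and 10.5 FPKM with shControl and 10.6, 12.6 and 7.20 FPKM with shNXN, with the groups overlapping. The counts that stood behind 1 FPKM unit of APC were 104, 89.2 and 79.3 on days 7, 9 and 11 with shControl and 18.5, 12.5 and 70.3 with shNXN. LRP6 was at 16.9, 22.7 and 16.7 FPKM with shControl and 24.8, 31.6 and 16.5 FPKM with shNXN, and its difference on the log2(FPKM + 1) scale was 0.32, of the opposite sign to that of the counts. For LRP6 the counts per FPKM unit were 64.8, 56.9 and 73.0 with shControl and 24.7, 16.7 and 50.0 with shNXN. For LRP5 the corresponding values were 63.7, 74.0 and 74.8, and 72.3, 70.9 and 69.0, so that counts and FPKM moved together. At a fixed transcript length and library size the counts per FPKM unit of a gene would not vary. Which transcripts carried the reads of APC and LRP6 in each library was not tested. By limma on log2(FPKM + 1), 0 members passed, beside 2.04% of all features, and 16 members had an unadjusted p under 0.05. For that scale the share of all features with an unadjusted p under 0.05 was not counted. On that scale APC (0.092), CSNK1A1 (0.16), ZNRF3 (0.032) and CCND1 (0.13) also had the opposite sign to their counts.

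**Figure D5:**
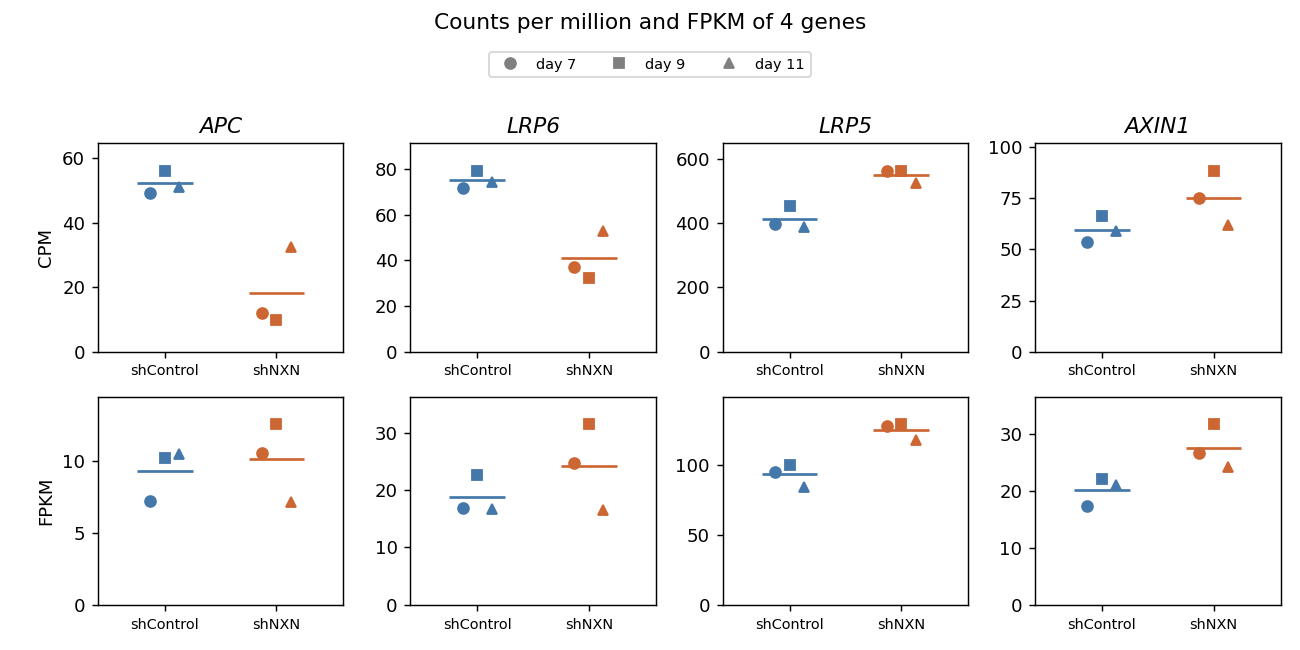
CPM (upper row) and FPKM (lower row) of APC, LRP6, LRP5 and AXIN1 in each library, with symbols for the day and bars for group means, all axes starting at 0. The shNXN points of APC and LRP6 all lie below the shControl points in CPM but not in FPKM, while LRP5 is higher in shNXN cells in both.

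Of the planar polarity genes, DAAM1, a formin that links Dishevelled to the actin cytoskeleton, fell with the block. DAAM1 was at 54.9, 39.9 and 71.5 CPM in the shControl libraries and 22.2, 16.7 and 51.4 CPM in the shNXN libraries. On days 7 and 9 the shNXN values were below all shControl values, whereas the day 11 value lay within the shControl range. DAAM1 had a log2 fold change of -0.88 ± 0.44 (SE) (edgeR adjusted p = 0.198), -1.01 ± 0.21 (SE) with the block (edgeR adjusted p = 0.0312) and 0.032 with the GC offset. In FPKM the groups did not overlap, at 22.08, 23.95 and 20.95 with shControl and 6.13, 4.69 and 14.21 with shNXN. On the log2(FPKM + 1) scale the DAAM1 difference was -1.45 ± 0.35 (SE) (limma, adjusted p = 0.0700). VANGL1, a core polarity membrane protein, and PRICKLE1, its cytoplasmic partner, had log2 fold changes of 0.27 ± 0.17 (SE) and -0.63 ± 0.51 (SE) and did not pass. With the GC offset they were at 0.57 ± 0.16 (SE) (edgeR adjusted p = 0.153) and -0.44 ± 0.46 (SE).

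The other genes of the pathway were taken from a list of 81, of which 55 could be tested. Their median log2 fold change was -0.15, or -0.026 with the GC offset, beside 0.025 over all features without it. PYGO1, the paralog of PYGO2, was the only one called in edgeR without the block (log2 fold change -1.48 ± 0.29 (SE), adjusted p = 0.0482). With the GC offset the PYGO1 log2 fold change was 0.0098 (edgeR adjusted p = 0.994). With the block 12 of the 55 genes fell and 2 rose (25.5%, beside 23.3% of all features). From a list of 20 other genes reported as TCF targets, 16 could be tested, with a median of 0.26, or 0.18 with the GC offset. None was called without the block (edgeR, 4 with an unadjusted p under 0.05, beside 32.9% of all features), and with it 1 fell and 2 rose (18.8%). The 1 that fell, EPHB2, had means of 1.86 CPM with shControl and 0.319 CPM with shNXN. At such low levels its entry into the test may rest on the shControl libraries, so its difference is given no weight. Of 12 pericentral hepatocyte genes, 4 of which are also members, 8 could be tested, with a median of -0.020, or 0.14 with the GC offset. In edgeR 0 were called with or without the block. Without it, 1 had an unadjusted p under 0.05, beside 32.9% of all features. That 1 was LECT2, with means of 1.39 CPM with shControl and 0.421 CPM with shNXN, and the same limit holds for it.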

How the data were processed

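RNA of 6 Hep-3B libraries, 3 shControl and 3 shNXN, was sequenced from SMARTER mRNA-Seq libraries. The authors deposited 1 table of estimated counts and 1 of FPKM values, both with a column for each library and the same features. Estimated counts share out reads that match several transcripts, so paralogs and overlapping genes are uncertain. The aligner and counting program are not given in the sources used here, and the submitters' processing notes name the mouse builds GRCm38 and mm10 although the features carry human Ensembl identifiers. There were 0 columns without a sample. Of 20314 Ensembl features 19433 had a symbol, and gene names, locations and GC content (longest transcript) came from GENCODE 29.

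Groups and days were taken from the labels. Counts were rounded to whole numbers and tested with edgeR 4.0.16 in R 4.3.3 (TMM, filterByExpr, quasi-likelihood test, Benjamini-Hochberg adjustment over 14071 features, adjusted p under 0.05). The standard error was the log2 fold change over the square root of the F statistic. Daily differences used log2 CPM with a prior count of 2. The pairing comes from the labels, where the replicate number follows the day, and deviations from the group means correlated at 0.304, 0.309 and 0.451 between libraries of the same day and at -0.368 to 0.148 between libraries of different days. No replicates were alike within sampling noise (chi-square per gene 21.1 to 82.9). The GC offset was a natural spline with 5 degrees of freedom per library. Alternatives were DESeq2 1.42.0, RLE factors, no filter, the replicate block, limma 3.58.1 on log2(FPKM + 1) and log2(FPKM + 0.1), the GC offset, and each library left out. The scripts were tested on simulated data.

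The members and gene lists were chosen with earlier results of these data known. Named with every library's value were members called with or without the block, the target members, the destruction complex and CTNNB1, plus up to 3 others per role by mean FPKM, and, from the lists of other pathway genes, those called without the block. Limits given for 0 counts cover counting error only, whereas the standard errors also hold the spread between libraries.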

Additional observations from a re-analysis of the deposited data

How the results depend on the processing

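Sign changes were followed for 29 members under 15 alternatives, of which the libraries of days 7 and 9 alone were chosen after seeing the data. The 29 were the members called with or without the block, the target members, the destruction complex and CTNNB1. The count of members called, 0 as reported, was 9 with DESeq2 (4 lower, 5 higher), 1 with RLE factors (LRP6, lower), 11 with the replicate block (6 lower, 5 higher) and 13 on days 7 and 9 (9 lower, 4 higher). With a library left out it was 0 to 9 (0 to 7 lower, 0 to 2 higher), and the shNXN library of day 11 alone decided this. The count of all features called, 477, became 3311 with DESeq2, 826 with RLE factors, 818 with no filter, 3272 with the replicate block, 287 and 66 by limma on log2(FPKM + 1) and log2(FPKM + 0.1), 5 with the GC offset, 130 with the block and the offset, 4519 on days 7 and 9, and 0 to 3706 with a library left out, with 3706 again without the shNXN library of day 11, 248 without the shControl library of day 9 and 0 without any other. The replicate block changed the sign of none of the 29 members.

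The median log2 fold change of the members, 0.24, was 0.30 with no filter, 0.32 on log2(FPKM + 0.1), 0.055 with the GC offset, 0.055 with the block and the offset, 0.17 on days 7 and 9 and 0.16 to 0.30 with a library left out. That of the target members, 0.19, was 0.24 with no filter, 0.31 on log2(FPKM + 1), 0.32 on log2(FPKM + 0.1), 0.055 with the GC offset, 0.054 with the block and the offset, and 0.16 to 0.32 with a library left out. Their median difference on day 7 was 0.23 with RLE factors, 0.24 on either FPKM scale and 0.060 with the GC offset, that on day 9 was 0.29, 0.18 and 0.18, and that on day 11 was -0.0095 with the GC offset. On log2(FPKM + 1) the targets stood at 0.24, 0.18 and 0.11 on days 7, 9 and 11. The median over all features on that scale was itself 0.17, 0.12 and 0.049. The NXN log2 fold change was -1.90 to -1.67 with a library left out. The group-by-day count stayed at 0 wherever it was fitted.

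The sign of 15 of the 29 members turned under at least 1 alternative. Members outside the 29 were not counted here, although some of them turned too, such as RYK at 0.82 and LGR4 at 0.068 with the GC offset. With the GC offset the log2 fold change was 0.24 for FZD3, 0.14 for FZD6, 0.36 for DKK1, -0.29 for NOTUM, -0.082 for AXIN1, 0.047 for GSK3B, 0.94 for CSNK1A1, 0.17 for CTNNB1, -0.013 for MYC and 0.032 for DAAM1. With the block and the offset it was 0.21, 0.14, 0.37, -0.25, -0.073, 0.092, 0.88, 0.19, -0.00070 and 0.0081 for the same genes, 0.0062 for LRP6 and 0.0063 for LGR5. On log2(FPKM + 1) and log2(FPKM + 0.1) it was 0.32 and 0.34 for LRP6, 0.032 and 0.034 for ZNRF3, 0.092 and 0.099 for APC, 0.16 and 0.17 for CSNK1A1, and 0.13 and 0.14 for CCND1. ZNRF3 was at 0.00017 with no filter, and on days 7 and 9 DKK1 was at 0.016 and CCND1 at 0.043. With a library left out ZNRF3 ranged from -0.080 to 0.047, DKK1 from -0.26 to 0.14 and CCND1 from -0.55 to 0.17. The cause of these changes was not tested. With 3 libraries per group, members with few counts such as WNT11 were measured with wide errors.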
